A study of Pimephales promelas with 26 samples.

Results

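The step from 0.74 to 3.38 µg/L fluoxetine joined neighbouring concentrations of an exposure series in fathead minnow larvae (Pimephales promelas, a small freshwater fish used in toxicity testing). Its members were the 5 libraries labelled 3.38 µg/L and the 5 libraries labelled 0.74 µg/L, replicates A to E in each, out of 26 libraries in all. No water library entered the comparison. Every library came from poly(A)-selected RNA of 20 pooled whole larvae, exposed through the water from 6 h after fertilization and collected at 7 days. The other 16 libraries comprised 5 water controls, 3 libraries each at 0.19 and 47.2 µg/L and 5 at 10.2 µg/L, with the same age and pooling, and no strain or other agent was labelled. The series title concerns transcriptomic points of departure, meaning the lowest exposure that moves expression, and the step asks what differed between a low and a middle concentration. A pool of whole larvae mixes all tissues, so fewer cells of a type and less RNA per cell cannot be told apart.

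Fluoxetine is an antidepressant that blocks the serotonin transporter, the membrane protein that takes serotonin back into neurons. In a larva of this age the outer surface is a thin epidermis held together by keratin filaments and desmosomes, the skeleton is cartilage and early bone in a matrix of collagens and proteoglycans, and the brain is still adding neurons and myelin. The measured unit was the RefSeq transcript. Genes often have several transcripts that differ in start, splicing or end, and kallisto, the program behind the deposited counts, divides shared reads among them by estimation. Single transcripts are therefore measured with less certainty than whole genes, and the sum over a gene is given where a named transcript was 1 of several. The gene table paired 55.1% of transcripts with a gene, so a sum may miss transcripts that were not paired.

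The 10 libraries held 14355155 to 27561882 estimated counts each, and a floor of 3 counts corresponded to at most 0.209 CPM (counts scaled to a common library total) in any of them. Fragment length, read from the deposited effective lengths, did not overlap between the groups. It was 255, 258, 259, 250 and 263 bp in replicates A to E at 0.74 µg/L and 222, 242, 239, 237 and 237 bp at 3.38 µg/L. The share of counts in non-coding transcripts did not overlap either, at 1.34% to 1.46% and 1.56% to 2.55%. The part of either difference in the results was not tested, beyond a fit with fragment length as a covariate. The labels give no extraction day, spawn or sequencing lane. Each of the 34 tissue and pathway lists had summed counts of at least 98.7 CPM in each of the 10 libraries, so no list was near 0 as a whole. Such a sum does not show that every marker of a tissue was detected.

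At 3.38 µg/L, transcripts of epidermal adhesion and keratin and of skeletal matrix and fin folds were lower than at 0.74 µg/L. Those of the drug-metabolizing enzymes cyp3a65 and cyp1a were lower too. Neuron markers were called higher more often than lower, but the calls were few in number (4 higher and 2 lower of 177 transcripts). Over all transcripts tested, 0.543% were called higher and 0.871% lower. In several genes 1 transcript was called while the sum over the gene was not. In all, edgeR called 620 of 43837 transcripts (1.41%) at a Benjamini-Hochberg adjusted p below 0.05, of which 238 were higher (0.543%) and 382 lower (0.871%) at 3.38 µg/L. The median log2 fold change was 0.50 among the higher and -0.63 among the lower, against 0.01 over all transcripts tested, and 111 of the 620 differed by at least 1 on the log2 scale. In 533 of the 620 the 5 libraries at 3.38 µg/L and the 5 at 0.74 µg/L did not overlap, which held for 4.83% of all transcripts tested. Scaled by library size alone, 560 were called, 314 higher and 246 lower, so the split between the directions depended on the scaling.

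The number called rested on single libraries and on how the fragment-length gap was treated. With fragment length in the model edgeR called 0 of 43837 transcripts, while DESeq2, which was run without that term, called 2463. At an unadjusted p below 0.05 edgeR had 1720 with the term, under the 1 in 20 that chance alone gives, and 6565 without it. Leaving out 1 library gave 40 calls without 3.38 µg/L replicate C, 119 without A, 127 without E, 461 without D and 1147 without B. At 0.74 µg/L it gave 77 without B, 173 without D, 274 without C, 338 without A and 474 without E. Of the 62 called transcripts named here, 9 passed in all 10 of these fits. The 12 that passed in 1 of them were those of actn4, cox7a2a, gjd1b, krt8, map1b, ndufb1, nqo1, nr3c1, scdb, srfa, ucmab and usp42. Those of atp2a2a, dspa, grhl1, krt4, sorbs2a, susd5, tpm1 (a pair) and trpv4 passed in 2.

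**Figure D1:**
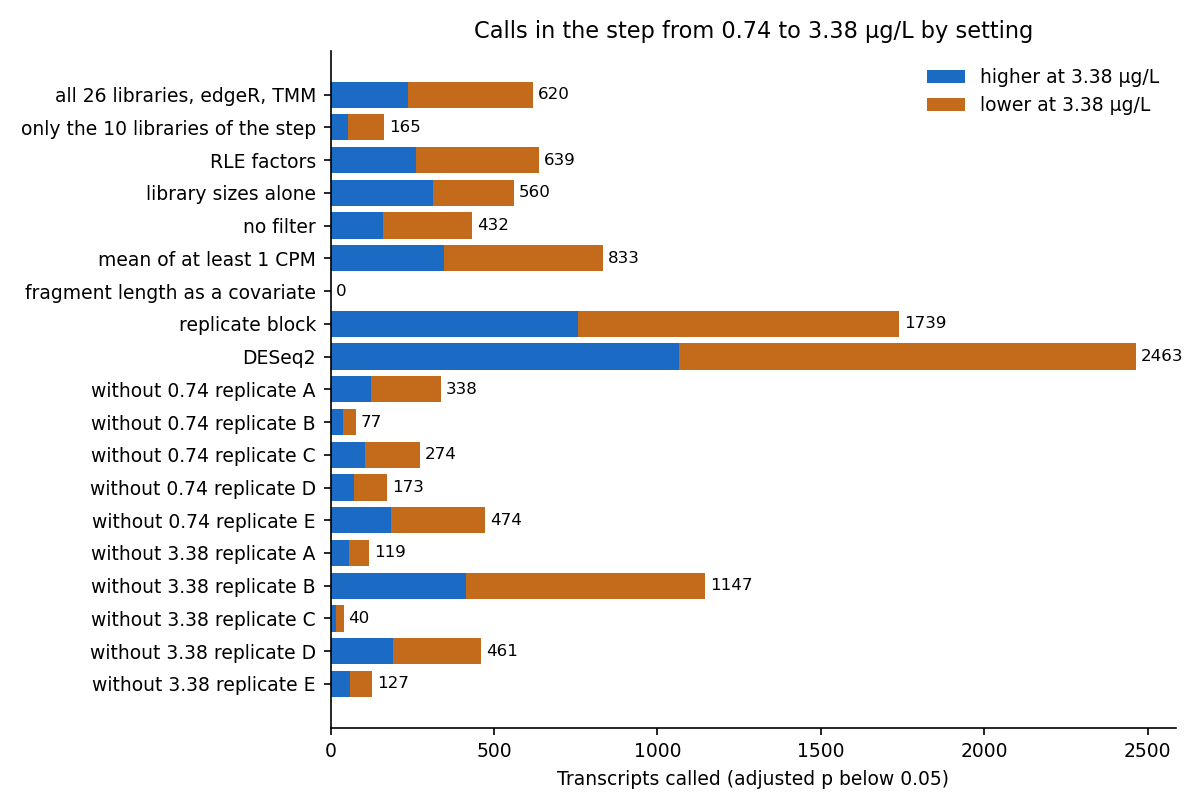
Number of transcripts called in the step from 0.74 to 3.38 µg/L (x axis) under each setting (y axis), split into higher and lower at 3.38 µg/L. The count was 620 in the fit to all 26 libraries, 0 with fragment length as a covariate and 2463 with DESeq2, and ran from 40 to 1147 when 1 library was left out.

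The largest fall among transcripts with a gene symbol was glb1l2 (XM_039647641.1), which encodes a protein related to the lysosomal enzyme beta-galactosidase. Its level was 38.1, 19.7, 29.6, 36.5 and 32.6 CPM in replicates A to E at 0.74 µg/L and 0, 3.63, 2.14, 2.22 and 3.56 CPM at 3.38 µg/L. The groups were far apart, with no 3.38 µg/L library near any 0.74 µg/L library. It fell by 3.76 ± 0.53 on the log2 scale (SE; edgeR adjusted p = 0.00217), every one of the 10 leave-one-out fits kept the call, and no other tested transcript was paired with the gene. The transcript of slc22a16 (XM_039693461.1), a carnitine and organic cation transporter in mammals, had the smallest p of the step. It measured 88.0, 91.2, 94.6, 94.4 and 98.8 CPM at 0.74 µg/L and 64.5, 63.3, 66.7, 62.5 and 59 CPM at 3.38 µg/L. The change was smaller than that of glb1l2, at -0.56 ± 0.06 (log2, SE; adjusted p = 0.000188), but the libraries within each group lay close together.

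A transcript of ktn1 (XM_039666693.1), whose protein kinectin sits in the endoplasmic reticulum and binds kinesin, fell from 106 ± 15.1 to 42.0 ± 13 CPM (SD, n = 5 each). On the log2 scale this was -1.34 ± 0.19 (SE; edgeR adjusted p = 0.00217), and the sum over the 4 ktn1 transcripts fell as well (-0.73 ± 0.12; adjusted p = 0.00435). The gpa33a transcript, related to a surface antigen of the mammalian intestinal epithelium, fell from 18.2 ± 1.71 to 7.09 ± 1 CPM (-1.36 ± 0.25, SE; adjusted p = 0.0168). One transcript of trpv4, a calcium-permeable channel that responds to osmotic and mechanical stimuli, fell by 1.32 ± 0.31 on the log2 scale (adjusted p = 0.0413), with a gene sum of -0.52 ± 0.12 (adjusted p = 0.0227). Its 3.38 µg/L libraries were scattered, at 9.97, 1.46, 7.21, 3.39 and 4 CPM, all under the lowest 0.74 µg/L library at 11.5 CPM. The remaining falls of the 12 largest were transcripts of rbbp8nl, susd5, cep83, which encodes a protein of the centriole that anchors cilia, septin9a, which encodes a filament-forming GTPase, atp2a2a, mag and tpm1 (a pair of transcripts). They ranged from -1.86 to -1.59 on the log2 scale. The sums over the cep83 and septin9a genes were not called (-0.26 ± 0.10 and -0.39 ± 0.11; adjusted p = 0.134 and 0.052).

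Epidermal transcripts were lower at 3.38 µg/L. Of 65 epidermis and ionocyte transcripts tested, 6 were called lower and 0 higher, and at an unadjusted p below 0.05 the counts were 34 lower and 1 higher. Over all transcripts that looser rule took 7.9% as lower and 7.08% as higher. The median log2 fold change of the list was -0.44, against 0.01 for all transcripts. The called members were 3 keratins (krt4, krt8 and krt97), both desmoplakins (dspa and dspb), which link keratin filaments to desmosomes, and grhl1, which encodes a transcription factor of epidermal cells. The larger dspb transcript (XM_039690102.1) measured 137, 173, 134, 133 and 138 CPM at 0.74 µg/L and 69.6, 108, 59.8, 80.4 and 68.4 CPM at 3.38 µg/L. No library overlapped, and the difference was -0.89 ± 0.16 (log2, SE; edgeR adjusted p = 0.0131), with a gene sum of -0.79 ± 0.14 (adjusted p = 0.00615). The dspa transcript fell by 0.78 ± 0.19 and the grhl1 transcript by 0.92 ± 0.23 on the log2 scale, with adjusted p-values of 0.0423 and 0.047. The keratins moved less, by -0.42 to -0.44, and were far more abundant. The krt4 libraries overlapped, at 2740 to 3750 CPM against 2010 to 2930 CPM. Near-identical keratins may share reads, so their division among genes is uncertain.

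Within the 3.38 µg/L group the epidermal list was not even. Its mean per library, as a log2 difference from the 0.74 µg/L mean, was -0.58, -0.15, -0.72, -0.15 and -0.55 in replicates A to E, against -0.17, 0.21, -0.01, 0.09 and -0.12 at 0.74 µg/L. Replicates A, C and E thus lay below every 0.74 µg/L library, while B and D lay within their range. Macrophage markers stood lowest in the same libraries, at -0.39, -0.05, -0.72, -0.20 and -0.49 in A to E against -0.22 to 0.11 at 0.74 µg/L. Their summed level was 408 to 520 CPM at 3.38 µg/L and 434 to 560 CPM at 0.74 µg/L, and no tested marker was at 0 on average over the libraries. Of 30 macrophage transcripts from 24 genes edgeR called 0, with 2 higher and 3 lower at an unadjusted p below 0.05 and 20 lower in sign. The immune list stood at -0.05, -0.28, -0.39, -0.32 and -0.34 against -0.13 to 0.14. The part of these cells in the epidermal values was not tested. Summed over genes, 9 of 56 epidermal genes were called lower and 0 higher. In that fit 3.44% of all rows were called in either direction. Its rows were gene sums and, each on its own, the transcripts not paired with a gene. With fragment length in the model the list median was -0.27.

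Skeletal matrix followed the epidermis. Of 142 transcripts of cartilage, bone and collagen, 7 were called lower and 0 higher, 49 were lower and 3 higher at an unadjusted p below 0.05, and the median was -0.37. The and3 transcript (XM_039677641.1), which encodes an actinodin of the fibres that stiffen larval fin folds, measured 34.3, 45.7, 37.3, 45.5 and 31.8 CPM at 0.74 µg/L. At 3.38 µg/L it measured 11, 26.9, 13.3, 20.3 and 17.8 CPM, with no overlap, and fell by 1.12 ± 0.21 on the log2 scale (SE; edgeR adjusted p = 0.0178). The fall of spp1, which encodes the bone matrix protein osteopontin, was from 30.0 ± 4.09 to 18.1 ± 2.94 CPM (-0.73 ± 0.15; adjusted p = 0.0213). The fibulin transcript fbln1 fell by 0.88 ± 0.17, with a gene sum that was not called (-0.53 ± 0.18; adjusted p = 0.0946), and the small proteoglycans ogna and fmodb fell by 0.80 ± 0.17 and 0.66 ± 0.13 on the log2 scale. The fibrillar collagen col27a1a and the cartilage protein ucmab completed the called members. The ogna and col27a1a groups overlapped.

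Per library, the skeletal list stood at -0.60, -0.02, -0.57, -0.26 and -0.49 in replicates A to E at 3.38 µg/L and ranged from -0.26 to 0.36 at 0.74 µg/L. Replicates A, C and E again lay below every 0.74 µg/L library and B and D did not. The fragment-length fit brought the list median to -0.16. As sums, 11 of 98 genes of the list were called lower and 0 higher.

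**Figure D2:**
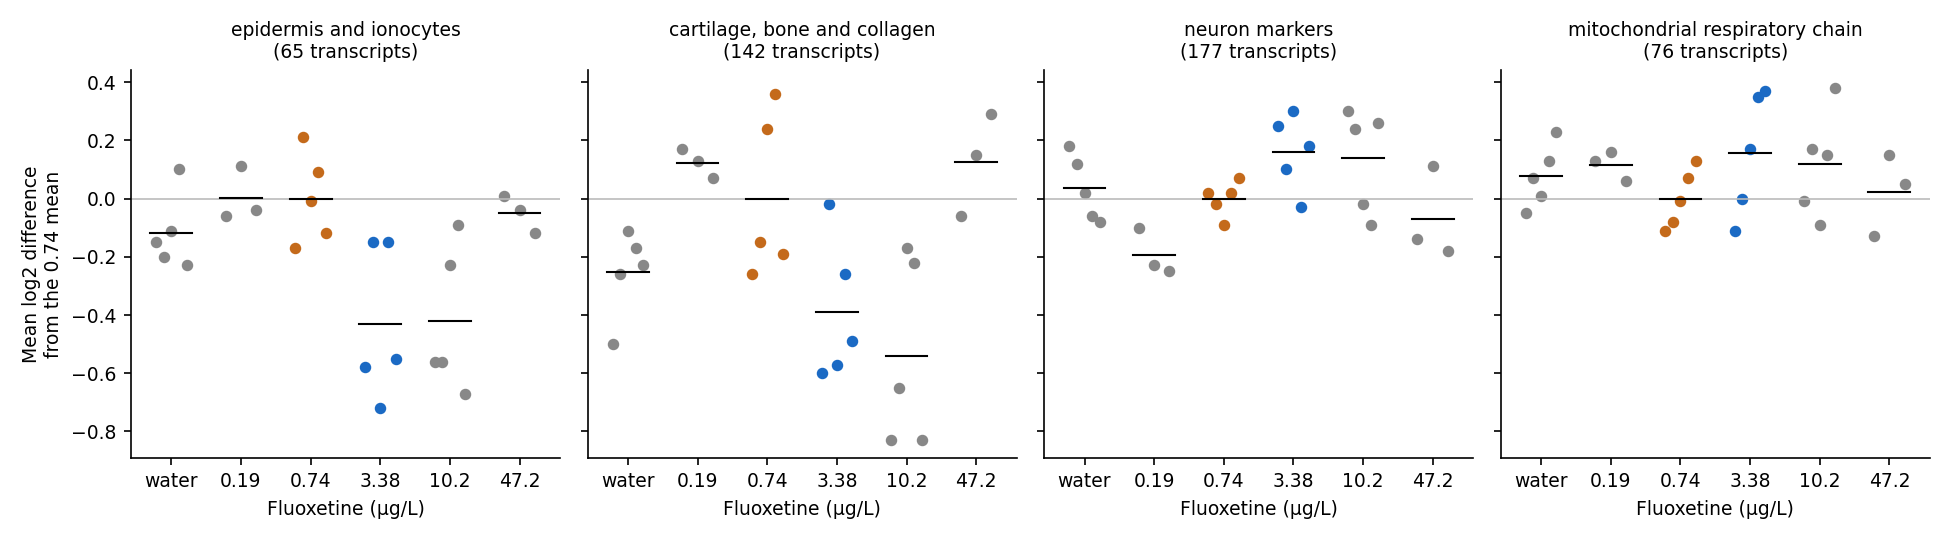
Mean log2 difference from the 0.74 µg/L mean (y axis) of 4 gene lists in each of the 26 libraries, by fluoxetine concentration (x axis, µg/L). Points are libraries in replicate order and lines are group means. The epidermal and skeletal lists were below every 0.74 µg/L library in 3 of the 5 libraries at 3.38 µg/L (-0.55 and below for epidermis) and went as low as -0.67 and -0.83 at 10.2 µg/L, while the neuron list at 3.38 µg/L ran from -0.03 to 0.30.

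Neuronal transcripts leaned the other way. Of 177 neuron-marker transcripts, 4 were called higher and 2 lower, 35 were higher and 7 lower at an unadjusted p below 0.05, and the median was 0.20. As gene sums, 9 of 83 were called higher and 2 lower. Those called higher were elavl4, which encodes a neuronal RNA-binding protein, map1b, which encodes a microtubule protein of growing axons, synpra, which encodes a protein of synaptic vesicles, and cnrip1a, which encodes a partner of the cannabinoid receptor. The map1b transcript (XM_039650045.1), the only tested one paired with its gene, measured 71.6, 59.9, 86.8, 75.7 and 78.1 CPM at 0.74 µg/L and 97.6, 102, 124, 112 and 118 CPM at 3.38 µg/L. The groups did not overlap, and the rise was 0.57 ± 0.14 (log2, SE; edgeR adjusted p = 0.0488). The synpra sum was also called (0.24 ± 0.07; adjusted p = 0.0472). Outside the list, a transcript of cplx2a, which encodes complexin, a regulator of synaptic vesicle release, rose from 42.0 ± 2.35 to 75.3 ± 12.7 CPM (0.84 ± 0.16; adjusted p = 0.0175), but the sum over the 4 cplx2a transcripts was not called (0.30 ± 0.10; adjusted p = 0.0801). The transcript of gjd1b, a connexin of electrical synapses, rose from 5.51 ± 1.76 to 9.86 ± 0.841 CPM (0.84 ± 0.21; adjusted p = 0.0489).

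Other neuronal transcripts fell. The hippocalcin transcript hpca (XM_039681006.1), which encodes a calcium sensor of neurons, measured 12.6, 11.8, 16.0, 15.1 and 15.2 CPM at 0.74 µg/L and 6.99, 8.91, 5.46, 7.54 and 5.56 CPM at 3.38 µg/L. The groups did not overlap, the fall was -1.04 ± 0.15 (log2, SE; edgeR adjusted p = 0.00335), and the gene sum fell equally (-1.08 ± 0.15). A transcript of rtn1a, which encodes a reticulon of the endoplasmic reticulum, fell by 0.30 ± 0.06, with a gene sum of 0.03 ± 0.06 (adjusted p = 0.887). Of 134 transcripts of neuronal calcium sensing, hpca was the 1 called lower and a calmodulin transcript, calm3a, the 1 called higher (0.49 ± 0.10; adjusted p = 0.0203; gene sum 0.40 ± 0.09). With fragment length in the model the neuron median was 0.02, and per library the list ran from -0.03 (replicate D) to 0.30 (replicate C) at 3.38 µg/L and from -0.09 to 0.07 at 0.74 µg/L, so the ranges overlapped.

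The mitochondrial respiratory chain, which makes most cellular ATP, had 4 transcripts called higher and 2 lower of 76, with 32 higher and 5 lower at an unadjusted p below 0.05 and a median of 0.21. The called rises were all small subunits. The cox7a2a transcript, a subunit of complex IV, rose from 52.6 ± 6.85 to 82.3 ± 15.4 CPM (log2 fold change 0.65 ± 0.16, SE; edgeR adjusted p = 0.048), the complex I subunits ndufc1 and ndufb1 rose by 0.60 ± 0.12 and 0.40 ± 0.09 on the log2 scale, and the last was a transcript of atp5mc3b. For another complex I subunit, ndufb5, the only tested transcript paired with the gene (XM_039691700.1) fell from 27.6 ± 2.62 to 12 ± 3.1 CPM (-1.21 ± 0.25; adjusted p = 0.0206), without overlap. The transcript numbered just before it, XM_039691699.1, has no paired gene and was called higher (1.09 ± 0.18; adjusted p = 0.00723). Whether both belong to the same gene was not tested. The transcripts of the list were short, with a median length of 694 bases against 2548 bases over all transcripts. Taken against the median of transcripts of the same length class, a comparison chosen after seeing the data, the list median was 0.10. Per library the list overlapped between the groups, from -0.11 to 0.37 at 3.38 µg/L and from -0.11 to 0.13 at 0.74 µg/L.

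Length itself moved with the step. The median log2 fold change was 0.22 among 561 transcripts under 500 bases, 0.13 from 500 up to 1000 bases, 0.05 from 1000 up to 2000 bases, 0.00 from 2000 up to 4000 bases and -0.04 above that. Of the shortest class 7 were called higher and 0 lower, and of the 10533 in the longest 39 were higher and 109 lower. The share called in either direction was 1.25% and 1.41% in these classes, against 1.41% over all transcripts, so the classes differed in direction rather than in share called. The share of length in the calls was not tested, and the epidermal and skeletal medians, read against their own length classes, were -0.47 and -0.37.

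Among biotransformation enzymes and transporters, 3 of 24 transcripts were called lower and 0 higher, with a median of -0.21. Over all transcripts tested 0.871% were called lower. The called members were the transporter slc22a16 and the genes cyp3a65 and cyp1a, which encode cytochrome P450 enzymes that oxidize drugs and aromatic compounds. The cyp3a65 transcript (XM_039655328.1) measured 401, 401, 416, 377 and 358 CPM at 0.74 µg/L and 244, 284, 207, 261 and 242 CPM at 3.38 µg/L, with a wide gap between the groups. The difference was -0.66 ± 0.14 (log2, SE; edgeR adjusted p = 0.0205), and that of cyp1a was -0.64 ± 0.13 (adjusted p = 0.019). Of 48 oxidative-stress transcripts, 2 were called lower and 0 higher. One was nfe2l2a, which encodes Nrf2, the main activator of antioxidant genes, and fell from 118 ± 4.27 to 82.7 ± 14.3 CPM (-0.51 ± 0.10; adjusted p = 0.0178). The other was nqo1, a quinone reductase induced by Nrf2 in mammals, which fell from 10.9 ± 1.6 to 6.31 ± 1.31 CPM (-0.79 ± 0.19; adjusted p = 0.0439). The list as a whole had a median of -0.04, with 4 higher and 5 lower at an unadjusted p below 0.05, and as gene sums 1 was called higher and 2 lower.

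Single members of other lists passed the test. In the stress axis, nr3c1, which encodes the glucocorticoid receptor, fell from 67.7 ± 1.77 to 54.5 ± 2.78 CPM (log2 fold change -0.31 ± 0.08, SE; edgeR adjusted p = 0.0474). It was the 1 called of 23 transcripts, 15 of which were higher in sign, and the list median was 0.13. Among 93 lysosomal transcripts, glb1l2 and psap, which encodes the precursor of the saposins, were called lower (psap -0.46 ± 0.11; adjusted p = 0.0392), with 21 lower and 6 higher at an unadjusted p below 0.05 and a median of -0.14. As gene sums, however, 3 of 68 in that list were called higher and 3 lower. The ribosomal protein transcript rpl23a fell from 641 ± 35.0 to 468 ± 65.9 CPM (-0.45 ± 0.09; adjusted p = 0.0181), while the list of 72 ribosomal transcripts had a median of 0.08. Read against the length classes of its members, the ribosomal median was -0.08. Of 52 photoreceptor transcripts the G-protein subunit gnb1a was called lower (-0.41 ± 0.09; adjusted p = 0.0243), although the list median was 0.26 and 42 of the 52 were higher in sign. In the cilium list, rab28, which encodes a small GTPase of cilia, rose in a transcript at 16.0, 14.9, 13.2, 15.8 and 16.5 CPM at 0.74 µg/L and 24.7, 20.6, 25.1, 25 and 24.9 CPM at 3.38 µg/L. It did not overlap (0.66 ± 0.08; adjusted p = 0.000407; gene sum 0.53 ± 0.08), and the call held whichever of the 10 libraries was left out.

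The most abundant called transcripts all fell by similar amounts. The actb2 transcript, a cytoplasmic actin, fell from 4640 ± 368 to 3530 ± 264 CPM (log2 fold change -0.40 ± 0.09, SE; edgeR adjusted p = 0.0279). The chaperone transcript hsp90ab1 fell from 2480 ± 95.5 to 1850 ± 165 CPM (-0.43 ± 0.08; adjusted p = 0.0178). The other 3 were krt4, krt8 and XM_039661167.1, a transcript the gene table does not pair with a gene, which fell from 3940 ± 228 to 3000 ± 286 CPM.

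Many of the largest rises were single transcripts of genes whose sum moved little. Of the 620 called transcripts, 119 belonged to genes with several transcripts tested, and the gene sum was called in the same direction for 62 of these. Another 326 were the only tested transcript paired with their gene, so the sum rested on nearly the same counts. All 326 of these sums were called, which is no separate result. The other 175 were not paired with a gene. Both transcripts of atp5mc3b, which encodes a copy of the membrane ring subunit of ATP synthase, were called in opposite directions. XM_039689574.1 measured 362, 302, 324, 296 and 363 CPM at 0.74 µg/L and 196, 237, 215, 223 and 231 CPM at 3.38 µg/L (log2 fold change -0.58 ± 0.07, SE; edgeR adjusted p = 0.000378). XM_039689575.1 went from 194, 175, 177, 167 and 202 CPM to 283, 262, 329, 309 and 340 CPM (0.74 ± 0.09; adjusted p = 0.000674). The groups did not overlap for either, and the sum differed by 0.03 ± 0.07 (adjusted p = 0.875). XM_039689574.1 made up 64.3 ± 0.648% of the sum at 0.74 µg/L and 42.1 ± 3.16% at 3.38 µg/L (SD, n = 5 each).

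A transcript of mbpa (XM_039678790.1), which encodes myelin basic protein, a major protein of the myelin sheath, measured 1.94, 1.04, 0.96, 4.75 and 3.61 CPM at 0.74 µg/L. At 3.38 µg/L it measured 30.8, 9.99, 35.6, 13.9 and 30.0 CPM, all higher, with a log2 fold change of 3.26 ± 0.49 (SE; edgeR adjusted p = 0.00335). Its share of the mbpa sum went from 2.24 ± 1.43% to 22.1 ± 11.7% (SD), and the sum of the 3 transcripts differed by 0.05 ± 0.11 (adjusted p = 0.892). In the same glial list a transcript of mag, the myelin-associated glycoprotein, fell from 5.02 ± 0.938 to 1.67 ± 0.750 CPM, and the sum over its 6 transcripts was not called either (-0.10 ± 0.08; adjusted p = 0.564). A transcript of the splicing regulator srek1 (XM_039661854.1) rose from 11.4, 14.4, 19.9, 16.0 and 18.1 CPM to 69.1, 38.9, 56.7, 43.5 and 51.1 CPM (1.70 ± 0.30; adjusted p = 0.0125). Here the gene sum rose too (0.67 ± 0.16; adjusted p = 0.0234), and so did that of elavl4, whose called transcript rose by 1.02 ± 0.20 and whose sum rose by 0.52 ± 0.13. These 2 were the only called members among 182 transcripts of splicing factors, whose median was 0.02.

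The scdb transcript XM_039672422.1, from a stearoyl-CoA desaturase gene of fatty acid synthesis, rose from 2.67 ± 1.86 to 15.6 ± 6.28 CPM (log2 fold change 2.53 ± 0.64, SE; edgeR adjusted p = 0.0487), with a gene sum of 0.26 ± 0.07 (adjusted p = 0.0405). For ahcyl1, sorbs2a and usp42 a single transcript was called higher by 1.51, 1.81 and 1.48 on the log2 scale. The gene sums, at 0.05, 0.20 and 0.24, were not called. The sorbs2a transcript went from 9.29% to 28.3% of the gene sum, the largest share of its 13 tested transcripts at 3.38 µg/L. The transcription factor gene srfa had 1 transcript higher by 1 ± 0.25 and a called sum of 0.25 ± 0.06. For rufy3, a gene of neuronal polarity and organelle transport, 1 transcript rose (0.79 ± 0.16) and another fell (-0.48 ± 0.11), and the sum was not called (-0.02 ± 0.06; adjusted p = 0.94). The actn4 transcript XM_039660338.1 had no counts in any 0.74 µg/L library and 1.43, 3.69, 0.338, 1.34 and 3.81 CPM at 3.38 µg/L. Its mean was at least 10.2-fold higher, against a floor of 3 counts per library, and the actn4 sum was -0.28 ± 0.09 (adjusted p = 0.103). In muscle, transcripts of tpm1, a tropomyosin, and of atp2a2a, the calcium pump of the sarcoplasmic reticulum, fell. The sum of the 10 tpm1 transcripts was -0.30 ± 0.09 (adjusted p = 0.0803), that of the 3 atp2a2a transcripts fell by 0.67 ± 0.15 (adjusted p = 0.0178), and the list of 112 skeletal muscle transcripts had a median of -0.01.

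The serotonin transporter genes were not called. The slc6a4a transcript measured 9.48, 11, 8.81, 9.27 and 8.51 CPM at 0.74 µg/L and 7.28, 7.70, 6.65, 5.2 and 0.375 CPM at 3.38 µg/L, where replicate E was near the floor. All 3.38 µg/L libraries were below all 0.74 µg/L libraries, with a log2 fold change of -0.79 ± 0.38 (SE; edgeR adjusted p = 0.338). The slc6a4b groups overlapped, at 3.90 ± 0.617 and 2.89 ± 0.557 CPM (-0.43 ± 0.18; adjusted p = 0.258). None of the 30 serotonin signalling transcripts passed, and 1 was higher and 1 lower at an unadjusted p below 0.05. No member was called by edgeR in the lists of cholesterol biosynthesis (median 0.26, 31 transcripts), cell cycle (0.18, 81), neuropeptides (0.18, 63), hepatocytes (-0.15, 90) and exocrine pancreas and intestine (-0.15, 53). At an unadjusted p below 0.05, hepatocytes had 18 lower and 1 higher, pancreas and intestine 10 lower and 0 higher, and neuropeptides 8 higher and 1 lower. Cholesterol biosynthesis had 2 higher and 1 lower, and the cell cycle 2 higher and 0 lower. The p53, clock, estrogen, thyroid, immune, macrophage, neutrophil, enterocyte, cardiac, lens and erythroid lists also had 0 called, with medians from -0.19 to 0.15. As gene sums, 2 were called higher in the erythroid list and 2 in the neuropeptide list, and 1 was called lower in each of the immune, macrophage, cardiac, lens and hepatocyte lists. The heat shock list had hsp90ab1 called of 68 transcripts and the lipid list scdb of 67, with medians of 0.00 and -0.01.

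A comparison of 10.2 with 0.19 µg/L used none of the 10 libraries, although all entered the same estimate of spread. It spanned the step from the outside, and its fragment lengths also did not overlap (226 to 247 bp against 248 to 258 bp), while the non-coding shares did (1.55% to 1.87% against 1.36% to 2.41%). There edgeR called 911 transcripts (2.08%). Of the 620 step transcripts, 612 (98.7%) had the same sign and 221 (35.6%) were called, all of them in the same direction, which was 24.3% of the calls made there. The same-sign share over all transcripts tested is not given here, so the 98.7% has no background beside it. Of the 62 named called transcripts, 29 were called there and 33 were not. Those called included glb1l2 (log2 fold change -3.31 ± 0.55, SE), ktn1 (-1.56 ± 0.21), slc22a16 (-0.82 ± 0.07), hpca (-1.02 ± 0.17), mbpa (3.52 ± 0.61) and both atp5mc3b transcripts (-0.65 ± 0.08 and 0.74 ± 0.11). The transcripts of cyp3a65 (-0.11 ± 0.16; adjusted p = 0.842) and cyp1a (-0.36 ± 0.15; adjusted p = 0.206) were not called. The actn4 transcript went the other way, with 5.2 ± 6.90 CPM (SD, n = 3) at 0.19 µg/L and 0.0488 ± 0.0508 CPM (n = 5) at 10.2 µg/L. The epidermal, skeletal and neuronal medians there were -0.35, -0.64 and 0.32, and that of the respiratory chain was 0.05. With fragment length in the model 2 of the 620 were called. Leaving out 1 library gave 71 to 318 of them, the lowest without 0.19 µg/L replicate B. The count was 82 without 0.19 µg/L replicate A and 83 without C, and 88, 94 and 114 without 10.2 µg/L replicates B, E and A.

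**Figure D3:**
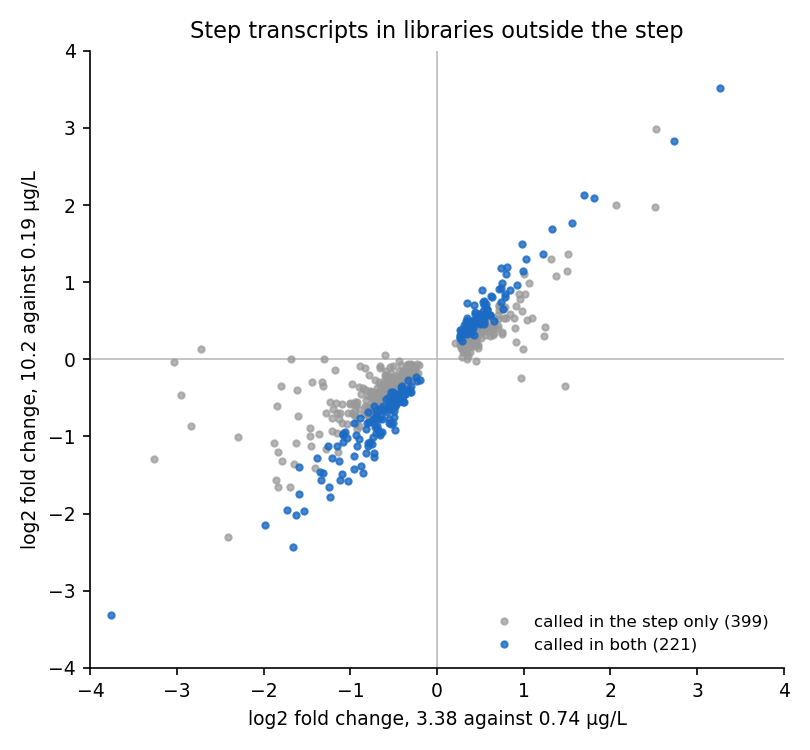
Log2 fold change of the 620 step transcripts for 3.38 against 0.74 µg/L (x axis) and for 10.2 against 0.19 µg/L (y axis), comparisons that share no library. Blue points were called in both (221) and grey points in the step alone, and 15 transcripts beyond 4 on either axis, 8 of them at 0 counts in 1 group of the step, are not drawn. Of the 620, 612 had the same sign, and the share over all transcripts tested is not given.

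The level of the step transcripts did not follow the concentration across the series. Averaged over the 620 and signed by the direction of the step, the libraries at 3.38 µg/L stood 0.59 to 0.93 above the 0.74 µg/L mean on the log2 scale, and those at 10.2 µg/L 0.49 to 0.89. Water stood at 0.43 to 0.62. The 0.19 µg/L libraries were at 0.07 to 0.09 and the 47.2 µg/L libraries at -0.02, 0.21 and 0.19, close to 0.74 µg/L. Of the 620, the group mean lay nearer to 3.38 than to 0.74 µg/L for 604 at 10.2 µg/L and 469 in water, and nearer to 0.74 µg/L for 579 at 0.19 µg/L and 542 at 47.2 µg/L. Over all transcripts tested the same shares were 64.4%, 54.3%, 61.9% and 60.1%. Against the water libraries, which both share, the list medians at 0.74 and 3.38 µg/L were 0.13 and -0.29 for epidermis, 0.23 and -0.11 for skeletal matrix, -0.08 and 0.10 for neurons and -0.10 and 0.12 for the respiratory chain. By these medians water lay between the concentrations of the step in these 4 lists, but its libraries overlapped with those at both concentrations. As log2 differences from the 0.74 µg/L mean, water ran from -0.08 to 0.18 for neurons and from -0.05 to 0.23 for the respiratory chain. Against water edgeR called 39 of 43837 transcripts at 0.74 µg/L and 0 at 3.38 µg/L. At 47.2 µg/L, replicates A, B and C had fragments of 247, 228 and 240 bp, beside the signed differences of -0.02, 0.21 and 0.19. Water, with fragments of 235 to 240 bp, stood above all of these. At 10.2 µg/L, fragments in replicates A to E were 230, 227, 247, 230 and 226 bp. The same libraries stood at 0.82, 0.89, 0.52, 0.49 and 0.88. At 3.38 µg/L, fragments in replicates A to E were 222, 242, 239, 237 and 237 bp, and the signed differences were 0.89, 0.59, 0.93, 0.68 and 0.88. The longest fragments were those at 0.19 µg/L (248 to 258 bp) and 0.74 µg/L (250 to 263 bp). These libraries stood at 0.07 to 0.09 and at -0.11 to 0.11. The part of fragment length in these levels was not tested.

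**Figure D4:**
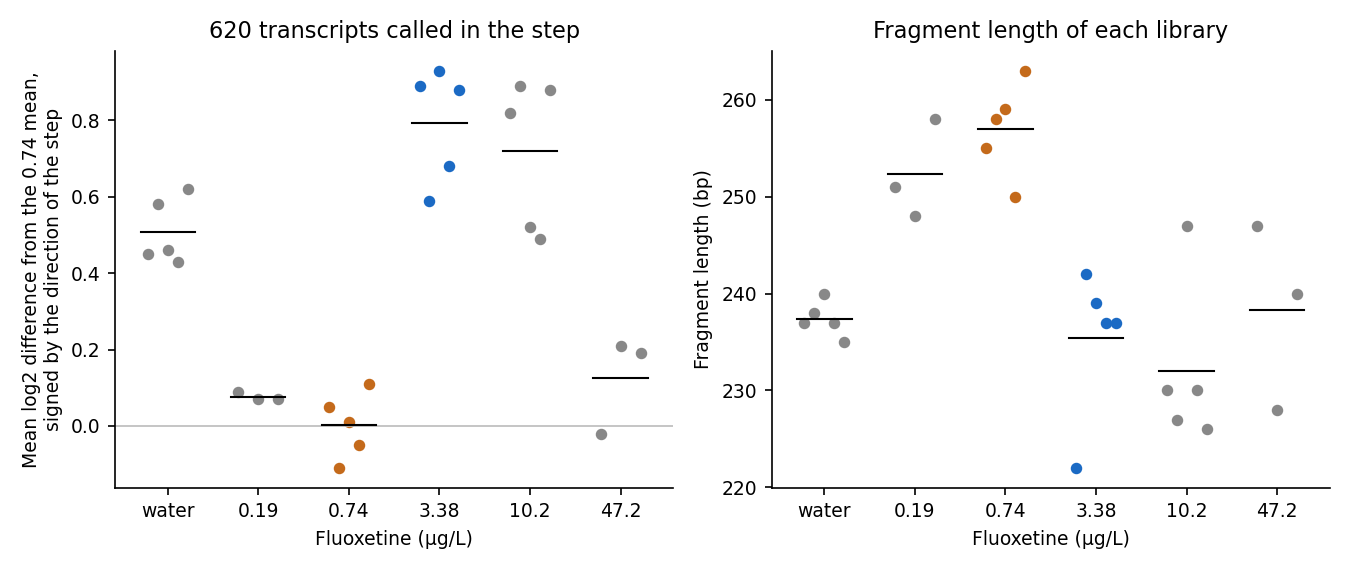
Left, mean log2 difference from the 0.74 µg/L mean over the 620 called transcripts, signed by the direction of the step (y axis), in each library by concentration (x axis); right, fragment length in bp. Points are libraries in replicate order and lines are group means. The 3 libraries at 47.2 µg/L had fragments of 247, 228 and 240 bp and signed differences of -0.02, 0.21 and 0.19, and the 5 libraries at 3.38 µg/L were at 0.59 to 0.93.

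Single transcripts showed the pattern more sharply. The glb1l2 mean was 5.09 ± 1.77 CPM in water, 31.6 ± 7.44 at 0.19, 31.3 ± 7.29 at 0.74, 2.31 ± 1.47 at 3.38, 3.18 ± 1.42 at 10.2 and 29.4 ± 1.43 at 47.2 µg/L (SD). The highest library in water, 3.38 or 10.2 µg/L was at 6.86 CPM and the lowest in the other groups at 19.7 CPM. For slc22a16 the same order of groups gave 59.9 ± 4.23, 107 ± 9.87, 93.4 ± 4.06, 63.3 ± 2.75, 60.4 ± 2.69 and 102 ± 8.75 CPM. The ktn1 transcript stood at 43.1 ± 5.05 CPM in water and 101 ± 13.1 CPM at 47.2 µg/L, and hpca at 6.45 ± 1.05 and 13.6 ± 0.399 CPM. For atp5mc3b, the share of XM_039689574.1 ran from 41.5% to 47.1% in water, from 39.5% to 47.5% at 3.38 and from 36.8% to 46.5% at 10.2 µg/L. It ran from 65.1% to 67.2% at 0.19, from 63.4% to 65.1% at 0.74 and from 59.8% to 66.6% at 47.2 µg/L, so no library of these 3 groups overlapped with the others. The epidermal transcript dspb did not divide the groups so sharply, at 98.6 ± 9.83 CPM in water, 132 ± 21.3 at 0.19, 143 ± 17.0 at 0.74, 77.3 ± 18.9 at 3.38, 78.2 ± 18.5 at 10.2 and 104 ± 15.7 at 47.2 µg/L. These levels are descriptions, since the transcripts were chosen for their difference between 0.74 and 3.38 µg/L.

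**Figure D5:**
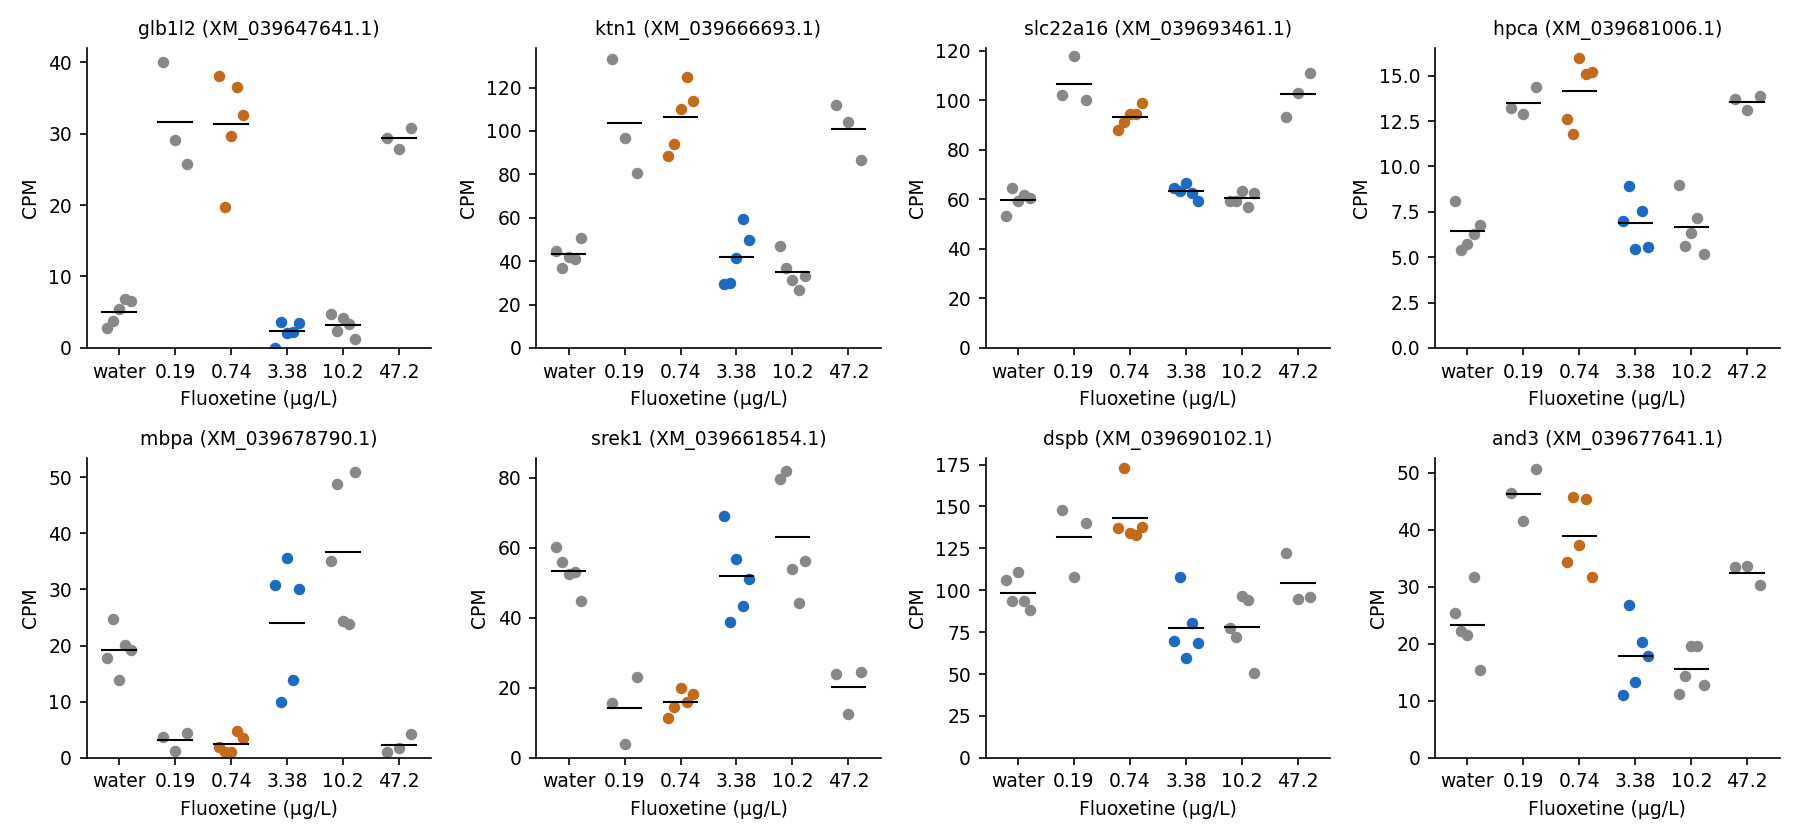
Level in CPM (y axis, from 0) of 8 named transcripts in each of the 26 libraries by fluoxetine concentration (x axis, µg/L). Points are libraries in replicate order, lines are group means, orange marks 0.74 and blue 3.38 µg/L. For glb1l2 the libraries at 0.74 µg/L sat at 19.7 to 38.1 and those at 3.38 µg/L at 0 to 3.63.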

How the data were processed

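Per the labels' protocols, libraries were made from 250 ng of total RNA by poly(A) selection with a directional kit, and each replicate was its own set of 20 embryos. The submitters' processing notes name Trimmomatic 0.38, kallisto and DESeq2. The index and its build are not given in the sources read. For each RefSeq transcript the authors deposited an estimated count from kallisto, its length and effective length, and TPM, a value scaled by length; the deposited TPM values were not tested here.

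Estimated counts of 57299 transcripts in 26 libraries were rounded to whole numbers. A RefSeq gene table of assembly fPimPro1.hap1.1, possibly another build than the authors', paired 55.1% of transcripts with a gene, carrying 82.6% of counts, so tests were made per transcript and sums per gene set beside them. Transcripts were tested in R 4.3.3 with edgeR 4.0.16 (limma 3.58.1), filterByExpr over the 6 groups, TMM factors (0.951 to 1.04) and a robust quasi-likelihood fit to all 26 libraries, two-sided, with Benjamini-Hochberg adjustment over all transcripts tested. The standard error came from the fold change and its F statistic. Levels are CPM, and list means use log2 CPM with a prior count of 2. Fragment length was the median of length minus effective length over transcripts of at least 3000 bases. Floors cover counting error only.

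Named transcripts were called, carried a symbol other than a locus number, averaged at least 1 CPM and did not overlap between the groups, the 12 largest in each direction. The 5 most abundant called transcripts, called members of 34 gene lists and the serotonin transporters were added. The members and lists were chosen with earlier results of these data known. DESeq2 1.42.0 was an alternative, the fits were tested on simulated data, and figures were drawn with matplotlib 3.10.9. No pair of replicate libraries agreed within sampling noise (lowest chi-square per degree of freedom 15.6).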

Additional observations from a re-analysis of the deposited data

Results flagged for a closer look

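Among 200 sets of 5 libraries examined, 13 held a library far from the other 4, and chance alone flags about 1 in 20. Replicate A at 3.38 µg/L had a fragment length of 222 bp, with the nearest library at 237 bp, and replicate C had 2.55% of counts in non-coding transcripts, with the nearest at 1.69%. At 0.74 µg/L the highest library stood apart for elavl4 (76.4 CPM, the next at 56.8), rbbp8nl (6.15, the next at 3.46), nqo1 (13.7, the next at 10.6) and dspb (173, the next at 138). At 3.38 µg/L the highest stood apart for the tpm1 transcript XM_039647052.1 (22.9 CPM, the next at 10.6) and cyp1a (55.2, the next at 42.8), and the lowest for nr3c1 (49.7 CPM, the next at 54.7) and rab28 (20.6, the next at 24.7). Some gene lists had a high library at 3.38 µg/L, as mean log2 differences from the 0.74 µg/L mean. These were the stress axis (0.53, the next at 0.17), photoreceptors (0.33, the next at 0.11) and lens (0.32, the next at -0.20).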

How the results depend on the processing

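With fragment length as a covariate the step had 0 calls. In that fit 1720 of 43837 transcripts were at an unadjusted p below 0.05, under 1 in 20. The count of 620 calls in the step was 165 in a fit to the 10 libraries alone and 2463 with DESeq2. Summed per gene, with each unpaired transcript kept as its own row, 1194 of 34679 rows were called. Per transcript, the count was 639 with RLE factors, 560 with library sizes alone, 432 without a filter and 833 at a mean of at least 1 CPM. Library sizes alone moved the higher share from 38.4% to 56.1%. Leaving out 1 library gave 40 to 1147 calls in the step, and 71 to 318 of the step transcripts called in 10.2 against 0.19 µg/L, where fragment length as a covariate left 2. A replicate block of the letters A to E gave 1739 calls. Same-lettered libraries of the step correlated at 0.0308 to 0.11, low but positive for every letter. For 4 of 5 letters the best match in the other group was the same letter. The rule used took the correlations as too low for pairing, and the main fit had no block. Letter D matched B best. Some pairing by letter remains possible from these values and was not tested. The 62 named called transcripts were all called with DESeq2, with a filter of 1 CPM and with the block, none with the covariate, 61 with RLE factors, 54 with library sizes alone, 46 without a filter, 27 of the 61 tested in the fit to the 10 libraries alone, and 9 (without 3.38 µg/L replicate C) to 60 (without B) when 1 library was left out. None changed sign under these settings. The cause of these changes was not tested. List medians moved by more than their spread between libraries for 12 of 34 lists with the covariate and for 1 against length classes, the latter added after seeing the data, and for 0 otherwise. With fragment lengths that do not overlap, the covariate and the concentration cannot be told apart within the step, and transcripts near 0.2 CPM are at the floor of 3 counts.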

Other observations

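The libraries at 3.38 µg/L were not alike in the lists that moved. Replicates A, C and E stood at 0.89, 0.93 and 0.88 on the signed mean of the 620 transcripts, and B and D at 0.59 and 0.68. The neuropeptide list, with a median of 0.18 in the step, stood at 0.40 and 0.35 in replicates A and C and at 0.00, 0.10 and 0.03 in B, D and E, as log2 differences from the 0.74 µg/L mean. The cholesterol biosynthesis list ran from -0.31 in replicate A to 0.68 in replicate D, and the cell cycle list from -0.42 in A to 0.49 in D. At 0.74 µg/L these lists were also uneven, from -0.36 to 0.26 and from -0.39 to 0.34. In the cell cycle list replicate A was also the lowest library in water, 10.2 and 47.2 µg/L. Replicate B was the lowest at 0.74 µg/L (-0.39, with A at -0.37) and at 0.19 µg/L (-0.07, with A at 0.32). At 10.2 µg/L the epidermal list also divided, at -0.56, -0.56 and -0.67 in replicates A, B and E and -0.23 and -0.09 in C and D, with fragment lengths of 230, 227 and 226 bp and of 247 and 230 bp.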
